A study of Mus musculus with 19 samples.

Results

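Of 4610 catalogue regions on a custom mouse array, 683 had their highest mean signal outside the erythroblasts. Each region is a genomic interval, named by chromosome, start and end in the mm9 build and by strand, at which a long intergenic noncoding RNA (lincRNA) had been catalogued. A region was kept where the highest of its 7 cell type means lay in LSK, CMP, MEP, GMP or granulocytes. It also needed at least 1 probe well above background, as the scanner software flagged it, on every array of that cell type. The choice therefore rests on the measured values, and the levels by cell type below are descriptions with no test.

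The arrays hold total RNA of 7 sorted populations from adult bone marrow of C57BL/6 mice aged 8 to 12 weeks, on 19 arrays. LSK cells (lineage negative, cKit+ Sca1+; 3 samples) contain the stem and multipotent progenitors. The lineage-negative cKit+ progenitors without Sca1 were split by the Fc receptor CD16/32 and by CD34. CMP (3 samples) were low for the receptor and high for CD34, MEP (3 samples) low for both, and GMP (2 samples) high for both. Granulocytes (3 samples) were sorted as Gr1+, early erythroblasts (2 samples) as Ter119+ FSC high CD44 high, and late erythroblasts (3 samples) as Ter119+ FSC low CD44 mid. No genetic change or treatment is named for any group. The labels do not say whether replicates came from separate animals, so a p-value reflects only how far these particular samples scatter, and that scatter may be technical. Each sorted population is a bulk sample, in which fewer cells of a type and less RNA per cell cannot be told apart.

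Long noncoding RNAs are transcribed and often spliced like messenger RNAs but carry no long open reading frame. Many are expressed in a narrower range of cell types than coding genes, and some act on chromatin or on neighbouring genes. In blood formation, stem cells give rise through CMP to 2 branches, MEP towards red cells and platelets and GMP towards granulocytes and macrophages. For the great majority of catalogue intervals no function is known, and none is assigned here.

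A level is the log2 signal minus the 75th percentile of that array's log2 signals, averaged over the spots and probes of a region, so that 0 is the 75th percentile of the array. Levels of different regions are not compared as abundances, since probes differ in how strongly they bind. The members were covered by 2139 probes: 141 members had 1 probe and 438 had 3 or more. They lay on 649 intervals, of which 34 held members on both strands, and 338 were on the forward and 344 on the reverse strand (1 had no strand in its name). Merging overlaps left 516 loci. Member length ran from 90 to 423545 bases with a median of 9501 bases, against 10680 bases for all catalogue regions. In their highest population the members' levels ran from -4.45 to 9.58 with a median of -1.65, and 166 members exceeded the 75th percentile of the array.

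Erythroblast arrays stood apart before any region was considered. Their 75th percentile intensity was 49.99 to 80.94, against 266 to 606 on the other arrays. The dimmest signal still called well above background lay at -2.54 to -2.80 relative to that percentile on erythroblast arrays and at -3.77 to -5.56 elsewhere. Of an array's spots, the scanner software flagged 42.9% to 47.1% as well above background in erythroblasts. In the other populations it flagged 49.5% to 66.3%, with GMP lowest at 49.5% and 49.8%. Among members the shares were 53.4% to 61.4% and 80.1% to 98.5%. This wider difference is favoured by the rule, which kept members for being highest and well above background outside erythroblasts. A member's level in erythroblasts is in many cases only an upper bound, and 179 members were not well above background on any erythroblast array. The size of the set moved with the scaling. With arrays scaled to their spike-in controls 2938 regions met the rule, with quantile normalization 1163, and with normexp background correction 263. Of the 683 members, 220 met it under all 6 other scalings and probe rules tried, and 97 of them also kept their highest population: 63 granulocyte, 22 LSK, 7 CMP, 3 MEP and 2 GMP.

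Marker lists of the sorted populations were compared on the log2 of the summed level of each list. The 8 LSK markers read 7.17 to 7.33 on LSK arrays and at most 6.30 elsewhere. Single markers of the list departed from that order: Ly6a, which encodes the Sca1 antigen used in the sort, had a mean of 3.59 in LSK, -0.03 in CMP, -0.97 in MEP, 3.34 in GMP and 5.65 in granulocytes, and Kit read 5.289 in LSK and 5.296 in MEP. The 6 GMP markers read 11.7 to 11.8 on GMP arrays and 10.8 on granulocyte arrays, the next highest. The 6 markers shared by CMP, MEP and erythroid progenitors read 7.12 to 7.67 on CMP, 7.49 to 7.83 on MEP and 9.495 to 9.876 on early erythroblast arrays. The 5 measured erythroblast markers read 13.09 to 14.01 on erythroblast arrays.

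**Figure D1:**
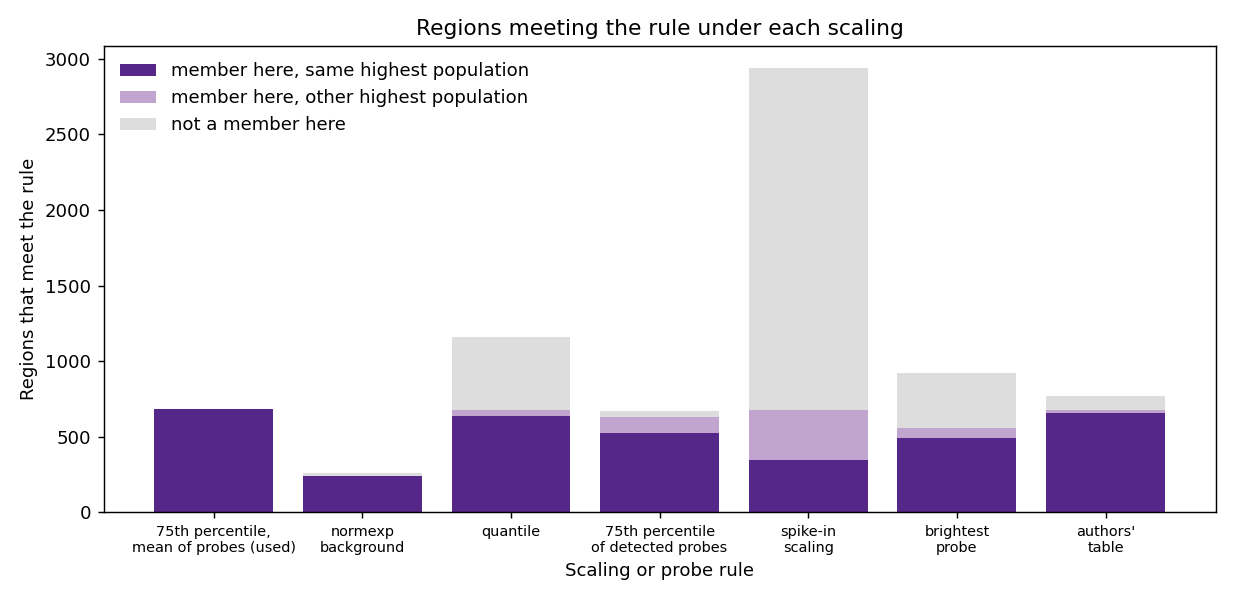
Number of catalogue regions that met the rule (vertical axis) under the scaling used here and under 6 alternatives (horizontal axis). Dark purple marks the 683 members that kept their highest population, light purple members that met the rule with another highest population, and grey regions that are not members; spike-in scaling gave 2938 regions and normexp 263.

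As a description of the rule's outcome under the scaling used, regions were less often highest outside erythroblasts than genes were. This contrast is bound to that scaling: 263 regions met the rule with normexp and 2938 with spike-in scaling. The shares of genes and custom features were not computed under the other scalings. Of 2862 catalogue regions well above background in their highest population, 683 (23.9%) peaked outside erythroblasts, against 63.8% of 14352 named genes and 47.1% of 981 custom features. The remaining 2179 such regions peaked in an erythroblast population. Many regions were nonetheless present outside erythroblasts: 3221 were well above background in LSK, CMP, MEP, GMP or granulocytes. Of these, 2530 had their highest mean in erythroblasts. In 116 of those 2530 no erythroblast array was well above background.

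Granulocytes were the leading population of the members. They were highest for 219 members (32.1%), LSK for 139 (20.4%), MEP for 131 (19.2%), GMP for 129 (18.9%) and CMP for 65 (9.52%). Named genes that peaked outside erythroblasts divided as granulocyte 28.6%, LSK 20.0%, MEP 11.51%, GMP 30.7% and CMP 9.19%. The members also differed in how far they stood above the next population. The median gap to the next highest mean was 0.63 (log2) for granulocyte members, 0.36 for LSK, 0.21 for GMP, 0.15 for MEP and 0.11 for CMP members. A gap of at least 1, which is a doubling, was seen in 97 members, of which 69 were highest in granulocytes and 24 in LSK. In 319 members the gap was under 0.25.

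Every array of the highest population lay above every other array in 146 granulocyte (66.7%), 52 LSK (37.4%), 40 GMP (31.0%) and 22 MEP (16.8%) members and in 0 CMP members. The share of named genes of the same highest population was 79.8%, 57.0%, 49.1%, 19.4% and 6.65% in that order. The CMP members thus have a highest mean but no separation of arrays. One array had a large part in the MEP group: MEP 3 was the single highest of all 19 arrays for 70 of its 131 members. Without MEP 3, 84 of the 131 still had their highest mean in MEP. The corresponding counts were 211 or more of 219 when any 1 granulocyte array was left out, 124 or more of 139 for LSK, 103 or more of 129 for GMP and 43 or more of 65 for CMP. MEP 3 also had the highest limit for a signal well above background (-3.77) among the arrays outside erythroblasts. Replicate arrays correlated over the members at r of 0.946 to 0.992, as a description over regions that share arrays.

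**Figure D2:**
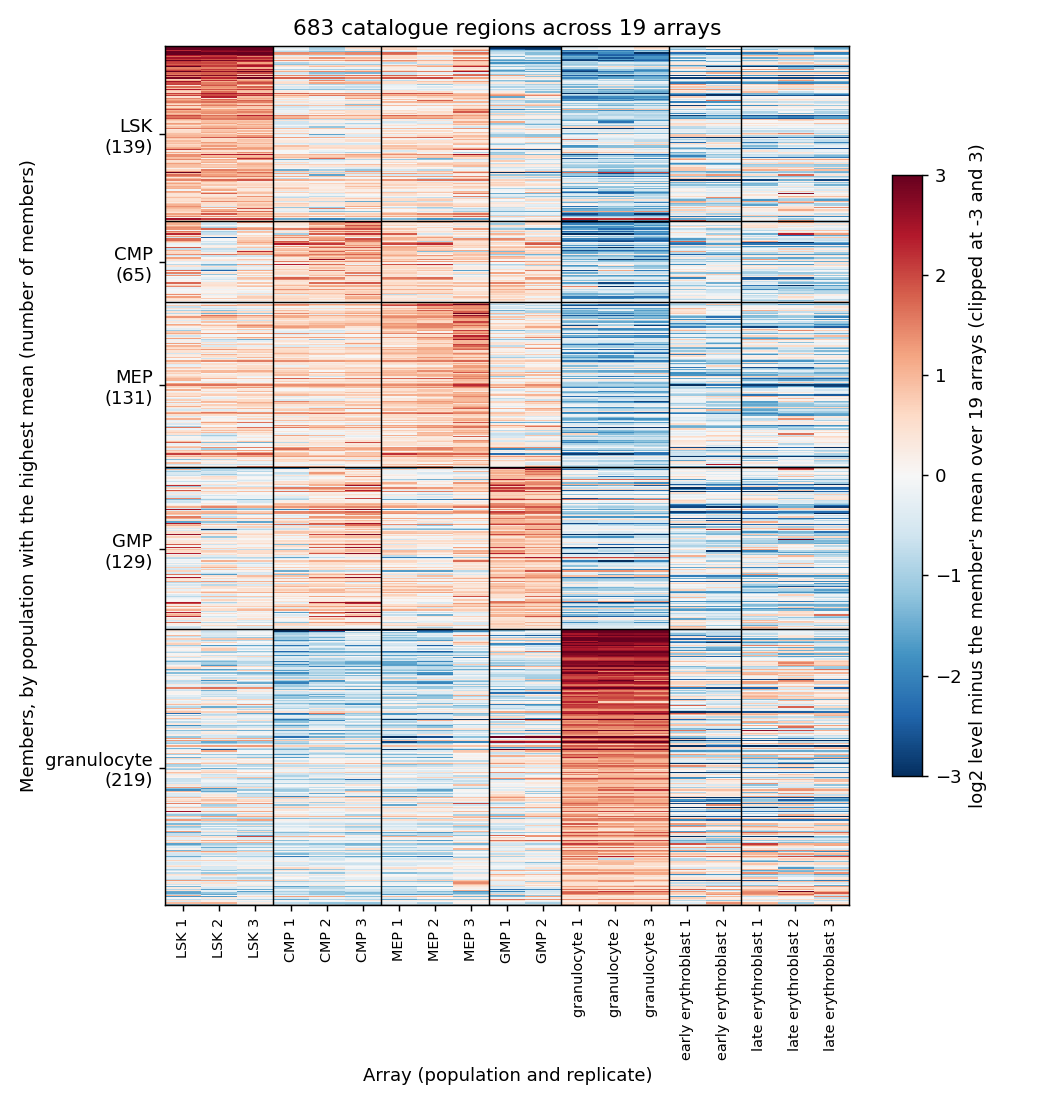
Each row is 1 of the 683 members and each column 1 of the 19 arrays; colour is the log2 level minus that member's mean over all arrays, clipped at -3 and 3. Rows are grouped by the population with the highest mean and ordered by the gap to the next. The 3 granulocyte arrays agree over the 219 granulocyte members, whereas in the 131 MEP members the MEP 3 column is the darkest.

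Members were seldom restricted to 1 population. Well above background in all 7 populations were 277 members, and in only 1 population 50 members: 22 in granulocytes, 18 in LSK, 6 in CMP, 3 in GMP and 1 in MEP. For LSK members the next highest mean was most often that of MEP (62 of 139). GMP members were followed most often by CMP (61 of 129), MEP members by CMP (46 of 131) and then LSK (40). Granulocyte members were followed by late erythroblasts in 78 of 219, by GMP in 48 and by LSK in 45. These ranks include means not well above background: 124 of the 219 granulocyte members were well above background in late erythroblasts.

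In LSK cells, the member with the largest gap was chr9:96632664-96653249 on the reverse strand (3 probes). Its 3 LSK arrays read -0.95, -0.92 and -0.96. On CMP arrays it read -4.85, -6.17 and -5.78, on MEP arrays -4.08, -3.93 and -4.61, and on GMP arrays -6.21 and -6.09. The LSK arrays were more than 2 log2 units above all other non-erythroid arrays and nearly identical among themselves. It was not well above background on any GMP, granulocyte or erythroblast array, and it was at least 3.09-fold higher in LSK than in erythroblasts.

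**Figure D3:**
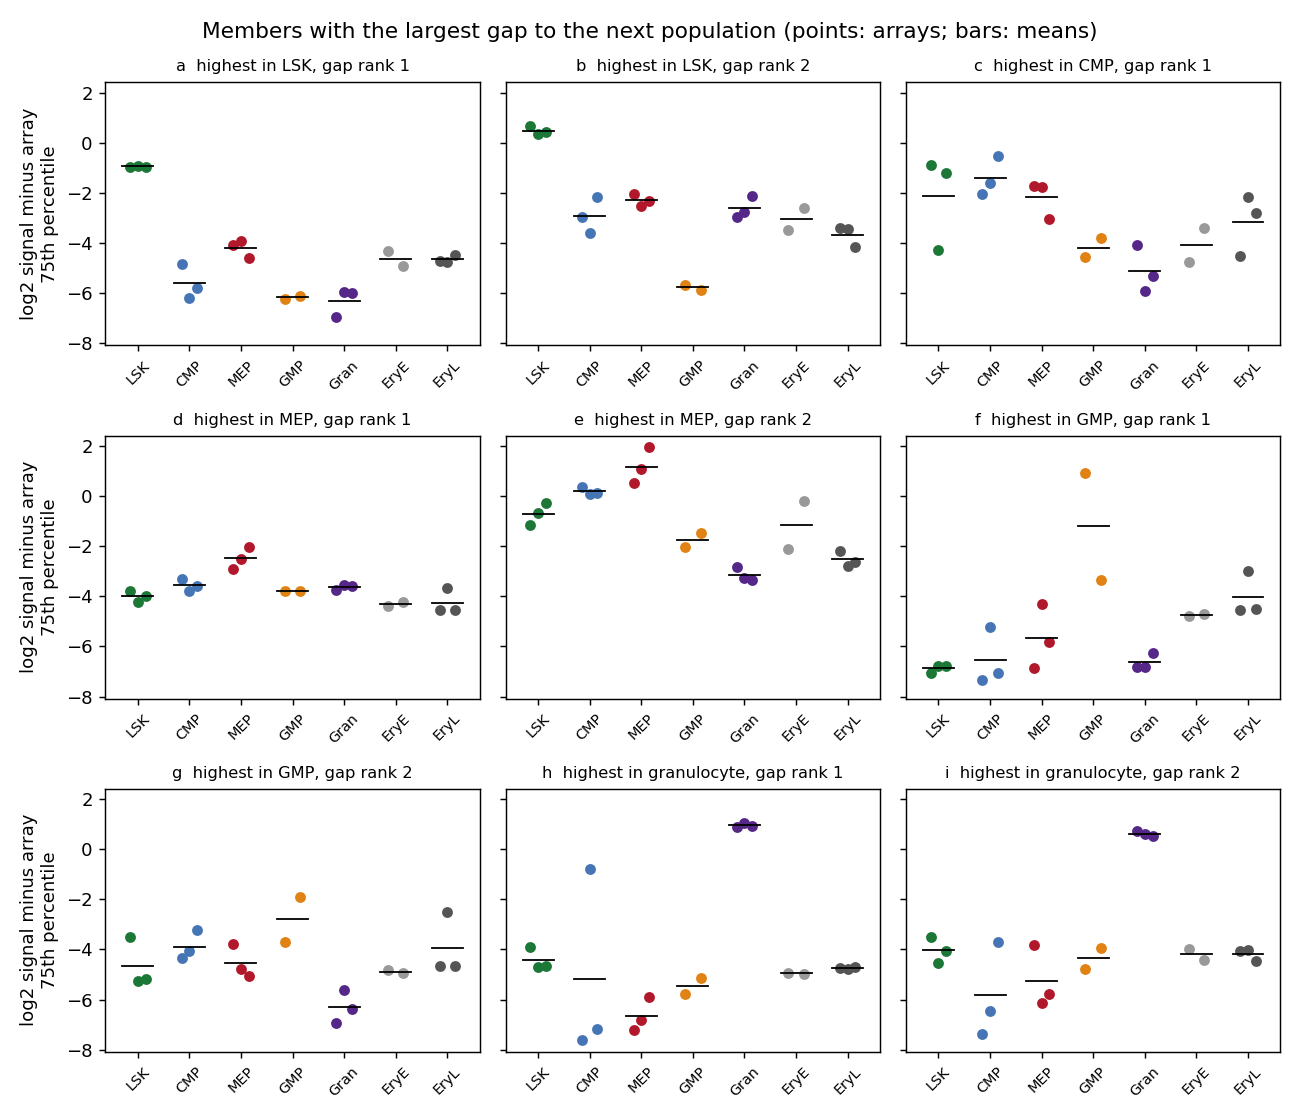
Level on each array (points; log2 signal minus the array's 75th percentile) with population means (bars) for members with the largest gap, by population (Gran granulocyte, EryE and EryL early and late erythroblast). Panels a and b are the LSK members on chromosomes 9 and 6, c the CMP member on chromosome 6, d and e MEP members on chromosomes 4 and 13, f and g GMP members on chromosomes 7 and 12, h and i granulocyte members on chromosomes 10 and 1. Replicates agree in a, b, h and i for the highest population, while the 2 GMP arrays of panel f differ by over 4 log2 units.

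A stretch of chromosome 6, from chr6:31007184 to chr6:31287353, held 5 members. Along it, chr6:31233512-31241062 (forward, 2 probes) read 0.68, 0.35 and 0.41 on LSK arrays and -2.95, -3.60 and -2.17 on CMP arrays. Its GMP arrays read -5.65 and -5.85, not well above background. The enclosing member chr6:31170350-31287353 (forward) had means of 0.14 in LSK, -3.45 in CMP, -2.36 in MEP, -5.61 in GMP and -2.95 in granulocytes. Both were thus high in LSK, lower in CMP and MEP, and lowest in GMP, with granulocytes near the CMP level. Beside them on the reverse strand, chr6:31115515-31168433 had a mean of -0.80 in LSK and -0.97 in granulocytes, against -3.63 in CMP and -5.65 in GMP. Its LSK arrays were spread, at 0.42, -1.62 and -1.22, and overlapped the granulocyte arrays. The reverse member chr6:31078802-31079644 had a similar order, with -0.04 in LSK, -0.55 in granulocytes and -3.28 in GMP. At chr6:31007184-31007725 (reverse) granulocytes were highest, at 0.59, and LSK read 0.17.

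LSK members also clustered on chromosomes 13, 3 and 16. The chromosome 13 locus (chr13:28551902-28977236) held 6 overlapping reverse-strand members, 5 highest in LSK and 1 in MEP, in intervals of 665 to 423545 bases. In each of the 6, GMP and granulocyte means lay below the LSK, CMP and MEP means. For example chr13:28700385-28760363 had means of -0.25 in LSK, -1.71 in CMP, -1.67 in MEP, -4.75 in GMP and -5.69 in granulocytes. The 4 overlapping members of chr3:30032959-30080281 were all highest in LSK and all on the reverse strand. Their strongest gap was that of chr3:30077338-30080281, at -2.17 in LSK and -4.45 in MEP, with no GMP or granulocyte array well above background. The 4 members of chr16:84702353-84710928, 3 on the forward and 1 on the reverse strand, were likewise highest in LSK, with gaps from 0.901 upwards and the largest at chr16:84707202-84707748 (forward), whose means were -2.57 in LSK and -4.23 in MEP.

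**Figure D4:**
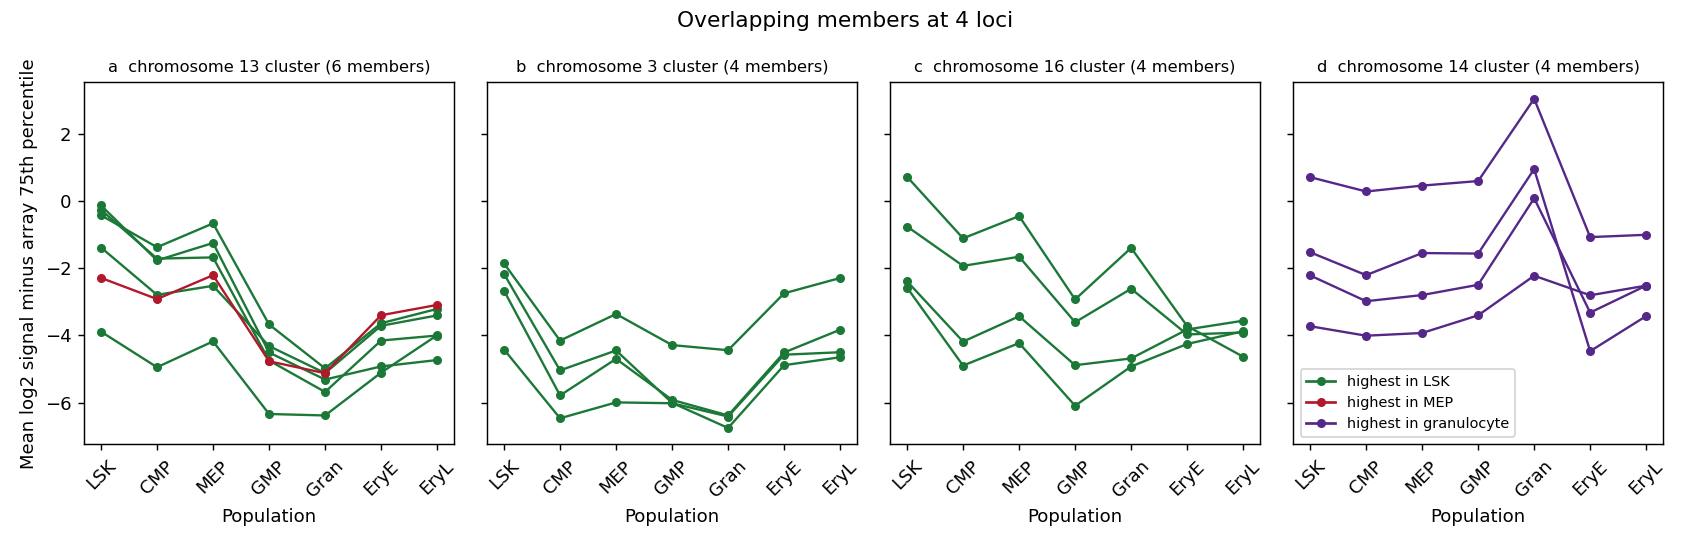
Mean level by population (vertical axis, log2 signal minus the array's 75th percentile) of overlapping members at 4 loci, 1 line per member, coloured by the population with the highest mean. On chromosomes 13, 3 and 16 every line has a lower mean in CMP than in LSK, and on chromosome 14 all 4 lines have their highest value in granulocytes.

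Among granulocyte members the largest gap, 5.38, was on the forward strand of an interval with members on both strands. This forward member of chr10:83980790-83986015 (1 probe) read 0.90, 1.04 and 0.94 on granulocyte arrays and -5.78 and -5.12 on GMP arrays. One of its CMP arrays, CMP 2, read -0.77 while CMP 1 and CMP 3 read -7.60 and -7.18. It was not well above background on any erythroblast array, and at least 11.53-fold higher in granulocytes than there. The reverse member (5 probes) read 1.08, 1.26 and 1.18 on granulocyte arrays and -2.12 and -2.24 on GMP arrays, with 3.35 log2 units to the next population. Granulocyte arrays of both strands were clear of every other array.

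At chr1:138579972-138587381 (forward, 1 probe) granulocyte arrays read 0.73, 0.60 and 0.53, and no GMP or erythroblast array was well above background. The chromosome 14 locus chr14:26834450-26847000 held 4 members, all highest in granulocytes. Its longest forward member had means of 3.06 in granulocytes, 0.61 in GMP and 0.72 in LSK, and the reverse member of the same interval -2.22 in granulocytes and -3.40 in GMP. Further along, chr14:26973425-26986650 had a like order, with 3.91 in granulocytes and 1.37 in GMP on the forward strand. On chromosome 19, chr19:53517903-53540753 (reverse, 10 probes) read 1.49, 1.72 and 1.67 on granulocyte arrays and -1.15 and -1.21 on GMP arrays. The 4 neighbouring members between chr10:96082444 and chr10:96103867 had their maximum in granulocytes and, among the 5 non-erythroid populations, their lowest mean in GMP. Of these chr10:96103732-96103867 (forward, 1 probe) had means of 1.88 in granulocytes, -1.08 in LSK and -3.41 in GMP.

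Some granulocyte members were already high in GMP. The forward member chr6:40699474-40719122 (2 probes) read 2.79 and 2.71 on GMP arrays and 3.66, 3.77 and 3.71 on granulocyte arrays. Its CMP arrays read -2.87, -1.72 and -1.76 and its MEP arrays -4.21, -3.38 and -4.47. The enclosing member chr6:40693617-40720167 had the same order, with 1.09 in GMP and 1.93 in granulocytes against -3.56 in CMP. At chr2:128142035-128142481 (reverse, 3 probes) the means were -1.42 in GMP and -0.63 in granulocytes, and MEP arrays were not well above background. The forward member chr3:131153358-131154061 (1 probe) had -1.56 in GMP and -0.85 in granulocytes, with no CMP, MEP or erythroblast array well above background.

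GMP members rarely stood far above the next population, and 3 of 129 had a gap of at least 1. The largest gap, 2.81 at chr7:35329490-35341191 (forward, 1 probe), rested on 1 array: GMP 1 read 0.93 and GMP 2 -3.34. Its next highest mean was that of late erythroblasts (-4.01), where no array was well above background. At chr12:18030600-18041625 (reverse, 1 probe) the GMP arrays read -3.69 and -1.91. Both GMP arrays lay above the CMP arrays at chr2:128211990-128215223 (reverse, 3 probes), with means of -0.84 in GMP, -1.05 in granulocytes and -3.97 in CMP. Its GMP arrays, at -1.09 and -0.60, overlapped the granulocyte arrays. GMP stayed its highest population under 4 of the 6 other scalings and probe rules. A different course was seen on chromosome 5. There chr5:14943275-14944205 (forward, 2 probes) had means of 0.26 in GMP, 0.05 in CMP and -0.65 in LSK, but -6.02 in granulocytes, where it was not well above background on any array. Its arrays were spread elsewhere, at -1.27, 0.33 and 1.08 in CMP and at 0.71, -1.68 and -0.97 in LSK. Its neighbour chr5:15146475-15170100 (forward, 4 probes) read -0.58 in GMP and -6.06 in granulocytes, and chrX:120812236-121038407 (reverse, 3 probes) -0.96 and -6.10.

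In the CMP, MEP, GMP and LSK groups the single member with the highest level lay close to its level in the next population. The highest level among GMP members was at chr11:22681800-22707775 (reverse, 1 probe), with means of 9.58 in GMP, 9.33 in CMP and 9.12 in LSK. Its means were 9.23 in early and 7.88 in late erythroblasts. GMP stayed its highest population under 3 of the 6 other scalings and probe rules. Among CMP members the highest level was at chr14:49314574-49358174 (reverse, 1 probe), with 6.52 in CMP and 6.34 in MEP. Among MEP members it was at chr6:122741562-122743423 (reverse, 3 probes), with 4.05 in MEP and 3.96 in GMP. Among LSK members it was at chr6:11996975-12037300 (forward, 5 probes), with 3.27 in LSK and 3.03 in CMP. The granulocyte member highest in level, chr11:35805295-35817263 (forward, 1 probe), stood further above the rest, at 7.26 in granulocytes, 5.64 in GMP, and 2.72 in early and 2.23 in late erythroblasts.

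MEP and CMP members had small gaps. The MEP member chr13:24615451-24615973 (forward, 3 probes) read 0.51, 1.07 and 1.93 on MEP arrays, 0.34, 0.09 and 0.13 on CMP arrays and -2.03 and -1.47 on GMP arrays. Its MEP arrays were above all others, with MEP 3 the highest. At chr4:149445201-149445902 (forward, 3 probes), the only MEP member with a gap of at least 1, the MEP arrays read -2.92, -2.50 and -2.04 and the CMP arrays -3.31, -3.79 and -3.58. The CMP member with the largest gap, chr6:140904129-140992655 (forward, 1 probe), read -2.03, -1.61 and -0.52 on CMP arrays. Its LSK arrays read -0.87, -4.26 and -1.19, so that the 2 populations overlapped.

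Members close to the boundary of the rule had nearly equal means in 2 populations. Just inside, chr2:77715502-77719430 (forward) had a mean of 1.59 in both granulocytes and late erythroblasts, and chr5:105063625-105077700 (forward) exceeded late erythroblasts by 0.0049 in GMP. Just outside, chr10:94900849-94928059 (reverse) read -3.50 in both granulocytes and early erythroblasts, and chr15:74474704-74474770 (forward) -2.43 in both granulocytes and late erythroblasts.

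The 5 comparisons among the non-erythroid populations were fitted over all features with limma (a linear model with moderated variances) on all 19 arrays, with Benjamini-Hochberg adjustment. Testing was limited to features flagged above background throughout 1 group or both. A feature was called at an adjusted p under 0.05 if the higher group was well above background throughout. Since a member could pass the filter through the very group in which it was highest, the member counts are descriptions to be read beside the share of all features called. For a member grouped by its highest population, the direction against that population is fixed by the grouping. Its adjusted p in such a comparison is a description and no independent evidence. Members named below were picked for their size, by the rule given with the processing. The populations GMP and granulocyte shared no slide, and the other comparisons shared 1 to 3 slides.

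From LSK to CMP, the first step out of the stem and multipotent compartment, 146 members fell and 79 rose. Of 653 members tested 225 were called (34.5%). Of the falls, 90 were LSK members, whose direction the grouping fixes, and 50 were granulocyte members, of which 9 rose. Of the CMP, MEP and GMP members 18, 21 and 31 rose and 0, 5 and 1 fell. Over all features 37.0% were called, 22.4% higher and 14.6% lower, and over all catalogue regions tested 15.5%. The members' share was thus near the background. Under scaling to probes detected on every array 27 members rose and 228 fell, and under spike-in scaling 51 rose and 14 fell. The median difference over all features was 0.14 (log2) in the scaling used, -0.19 with detected probes and 0.97 with spike-in scaling. Arrays of the 2 populations did not overlap in 48.2% of members tested and 51.5% of all features.

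The largest fall was that of chr9:96632664-96653249, by 4.66 ± 0.32 (SE; log2) in CMP against LSK (adjusted p = 5.9e-08, 3 arrays each). Within the 2 slides that held both populations it differed by -5.21 and -4.83. At chr3:146645022-146646977 (forward, 3 probes) no CMP array was well above background, and LSK was at least 5.10-fold higher (adjusted p = 1.8e-09). Both are LSK members, so the direction was fixed by the grouping and each adjusted p is a description. The chromosome 6 pair fell by 3.38 ± 0.34 (chr6:31233512-31241062, adjusted p = 2.3e-06) and 3.59 ± 0.25 (chr6:31170350-31287353, adjusted p = 7.3e-08). The calls of chr9:96632664-96653249, chr3:146645022-146646977 and chr6:31170350-31287353 held in the same direction under each of the 16 alternatives run. At the chromosome 3 locus all 4 members fell, by 2.05 to 3.12, and at the chromosome 16 locus all 4 fell, by 1.18 to 2.32. Of the 6 chromosome 13 members, 4 fell by 0.95 to 1.64, while chr13:28952570-28953234 (adjusted p = 0.14) and chr13:28975118-28977236 (adjusted p = 0.21) did not pass. With slide as a block, chr13:28947034-28949166 lost its call as well (adjusted p = 0.11).

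Another member, chr4:127020290-127020504 (forward, 2 probes), fell by 3.93 ± 0.22 from LSK to CMP (adjusted p = 9.2e-09) and read -1.15 in both LSK and granulocytes. Its GMP mean was -3.24. Rising members were fewer and rose less. The largest rise, 2.31 ± 0.45 at chr8:94849929-94870274 (reverse, 1 probe; adjusted p = 0.00089), went on to a mean of -1.28 in MEP. At chr4:21683562-21694350 (reverse, 2 probes) the rise was 2.07 ± 0.28 (adjusted p = 3.6e-05). Granulocyte members were chosen with both the LSK and the CMP mean below that of granulocytes, and could be tested through either population. Of 193 tested, 50 fell and 9 rose from LSK to CMP (5 rose and 0 fell with spike-in scaling). Over all features 14.6% were lower and 22.4% higher in CMP. Granulocyte marker genes moved with the granulocyte members. The log2 of the summed level of 7 of 8 listed markers was 9.04 to 9.31 on LSK arrays, 5.88 to 6.75 on CMP arrays and 12.3 to 12.5 on granulocyte arrays, with Ltf and Retnlg, which encode neutrophil granule and secreted proteins, well above background in every population. Their part in these differences was not tested.

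MEP and CMP differed in few features. Of 620 members tested 35 were called, 26 higher and 9 lower in MEP, against a background of 4.84% of all features (2.19% higher, 2.65% lower) and 1.89% of catalogue regions. The count depended on single arrays: it was 8 without CMP 2, 11 without CMP 3, 14 without MEP 3 and 19 without MEP 2, and the count over all features was 361, 381, 564 and 606 in the same order. With only the 2 groups in the limma fit, 0 features were called, although 4170 of all features had an unadjusted p under 0.05. The split of members (higher and lower) was 21 and 12 with normexp, 11 and 8 with quantile normalization and with the authors' table, 38 and 6 with detected probes, and 0 and 2 with spike-in scaling, which called 96 features in all.

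Among the members called, chr6:40699474-40719122 was lower in MEP than in CMP by 1.90 ± 0.32 (adjusted p = 0.0037). At chr2:128142035-128142481 the MEP arrays were not well above background and CMP was at least 1.41-fold higher (adjusted p = 0.0021); the call was lost with normexp. On the rising side chr6:3283191-3284581 (reverse, 2 probes) differed by 1.48 ± 0.27 (adjusted p = 0.006), with means of -3.84 in MEP and -5.32 in CMP, though its highest population was granulocyte (-1.91); the call was lost with quantile and spike-in scaling. The rise of 2.04 ± 0.42 at chr12:88172043-88172731 (reverse, 3 probes; adjusted p = 0.011) lost its call with normexp, with spike-in scaling and without CMP 2. The LSK members called between MEP and CMP, 10 of 117 tested, were all higher in MEP under this scaling (0 were called with spike-in scaling).

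GMP and CMP differed in 110 of 619 members tested, 49 higher and 61 lower in GMP. The background was 18.6% of all features (9.9% higher, 8.71% lower) and 8.35% of catalogue regions. With normexp 120 members rose and 30 fell, and with spike-in scaling 5 rose and 92 fell, and with detected probes 37 and 82. Over all features these scalings gave 69.0% and 4.70% of calls as rises, against 53.2% in the scaling used. The highest rise with agreeing replicates was that of chr6:40699474-40719122, by 4.86 ± 0.35 (adjusted p = 1.2e-07; 4.43 within the slide that held both populations). The enclosing chr6:40693617-40720167 rose by 4.65 ± 0.46 (adjusted p = 3.5e-06). At chr3:131153358-131154061 GMP was at least 10.4-fold higher than CMP (adjusted p = 3e-05), and chr2:128211990-128215223 rose by 3.12 ± 0.33 (adjusted p = 7.1e-06). At chr7:35329490-35341191, whose GMP arrays lay far apart (0.93 and -3.34), no CMP array was well above background (adjusted p = 0.0011). The bound of at least 13.4-fold holds only for the mean of its GMP arrays. Within the slide that held both populations GMP was higher by 1.89 (log2). The difference of this member between MEP and GMP was no longer called without GMP 1 or with only the 2 groups in the limma fit.

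Falls from CMP to GMP were led by chr8:82854412-82919089 (reverse, 3 probes), by 3.17 ± 0.30 (adjusted p = 1.8e-06). The LSK member chr13:28700385-28760363 fell by 3.04 ± 0.32 (adjusted p = 5.6e-06). At chr17:12941161-12944859 (5 probes, no strand given) no GMP array was well above background and CMP was at least 2.66-fold higher (adjusted p = 1.1e-05). Of the LSK members 34 of 114 tested fell and 1 rose. With normexp 14 fell and 8 rose, and with the other scalings and probe rules 24 to 40 fell and 0 or 1 rose.

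Between the 2 branch progenitors the members leaned towards MEP. Of 611 tested 208 were called, 134 higher and 74 lower in MEP than in GMP, against a background of 31.9% of all features (13.9% higher, 18.0% lower) and 16.9% of catalogue regions. With normexp the balance turned, to 60 higher and 149 lower, and with scaling to detected probes it was 180 and 48 (73 and 15 with spike-in scaling). The LSK members, highest in neither population, gave 55 higher and 1 lower in MEP out of 114 tested. That order held with normexp (29 and 5), spike-in scaling (32 and 0), quantile normalization (46 and 1), scaling to detected probes (69 and 1), the brightest probe (42 and 1) and the authors' deposited table (46 and 1). Their median difference was 0.63 in the scaling used and -0.02 with normexp. The level of the LSK marker list moved in the same direction: its summed log2 level was 6.11 to 6.30 on MEP arrays and 5.14 to 5.42 on GMP arrays, and 7 of 8 markers were well above background in both. Ly6a went the other way, at -0.97 in MEP and 3.34 in GMP. The list's part in the members' difference was not tested.

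Single members showed the same split. The chromosome 6 pair was higher in MEP than in GMP, where neither was well above background: chr6:31233512-31241062 at least 3.30-fold (adjusted p = 4.4e-06) and chr6:31170350-31287353 at least 3.14-fold (adjusted p = 4e-07). All 6 chromosome 13 members were higher in MEP, with adjusted p from 1e-06 to 0.027. The highest of these, chr13:28975118-28977236, lost its call with slide as a block (adjusted p = 0.1). At chr10:120058696-120076196 (reverse, 2 probes) MEP was at least 4.56-fold above GMP (adjusted p = 8.7e-07), with means of -1.82 in MEP and -1.84 in LSK. In the other direction chr6:40699474-40719122 was lower in MEP than in GMP by 6.76 ± 0.35 (adjusted p = 2.5e-09). GMP was at least 9.65-fold above MEP at chr2:128142035-128142481 (adjusted p = 3e-08) and at least 8.76-fold at chr3:131153358-131154061 (adjusted p = 1.8e-06).

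Granulocytes and GMP differed in most members. Of 617 tested 474 were called, 194 higher and 280 lower in granulocytes. The background was 64.8% of all features (25.8% higher, 39.0% lower) and 38.8% of catalogue regions. Arrays of the 2 populations did not overlap in 89.1% of members tested and 82.4% of all features. Spike-in scaling gave 120 higher and 85 lower, and scaling to detected probes 227 and 228. No slide held both populations, so no within-slide value exists. With slide as a block, estimated through the other populations, 352 members were called.

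The largest rise was at chr10:83980790-83986015, where granulocytes were at least 31.3-fold above GMP on the forward strand (adjusted p = 0.00063), and higher by 3.35 ± 0.23 (log2) on the reverse (adjusted p = 1.2e-08). At chr1:138579972-138587381 they were at least 24.4-fold above GMP (adjusted p = 7.5e-05). Rises of 5.29 ± 0.59 at chr10:96103732-96103867 (adjusted p = 1.7e-06), 3.05 ± 0.24 at chr1:85304494-85305390 (reverse, 3 probes; adjusted p = 4.4e-08) and 2.81 ± 0.18 at chr19:53517903-53540753 (reverse; adjusted p = 6.5e-09) were also called. Not only granulocyte members rose: chr6:31115515-31168433, highest in LSK, was at least 8.23-fold higher in granulocytes than in GMP (adjusted p = 1.4e-06). Falls were as large. GMP was at least 30.7-fold above granulocytes at chr5:14943275-14944205 (adjusted p = 1.7e-06). The differences were -5.48 ± 0.70 at chr5:15146475-15170100 (adjusted p = 6.6e-06) and -5.14 ± 0.76 at chrX:120812236-121038407 (adjusted p = 2.9e-05).

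Of the CMP, MEP and GMP members, 45 of 53, 81 of 114 and 101 of 129 tested fell from GMP to granulocytes. In the same groups 1, 1 and 0 rose. Over all features 39.0% were lower and 25.8% higher in granulocytes. For the GMP members the grouping fixes that direction. CMP and MEP members were chosen with granulocytes below their highest mean, and 52 of 65 and 112 of 131 were well above background in GMP. With spike-in scaling 14, 26 and 36 of the CMP, MEP and GMP members fell, and 1, 0 and 0 rose. The Gr1+ samples also carried other lineages' markers. Relative to GMP, the summed log2 level on granulocyte arrays was 8.30 to 8.44 against 1.86 to 2.56 for 5 erythroblast markers, 5.60 to 5.66 against 1.85 to 3.15 for 6 macrophage markers, and 4.68 to 4.76 against 3.90 to 4.16 for 7 B cell markers. All of these were well above background in granulocytes, as were 4 of 5 endothelial and stromal markers, whereas in GMP 3, 4, 3 and 2 markers of these lists were. For 6 T and NK cell markers the summed level was 5.81 to 5.87 in granulocytes and 6.75 to 7.32 in GMP, but Nkg7 alone had the higher mean in GMP (6.99 against 5.52). The other 5 had the higher mean in granulocytes, such as Cd3e at 2.15 against 1.39 and Lck at 2.44 against 0.00, and 6 of the 6 were well above background in granulocytes against 4 in GMP. The 4 monocyte and dendritic markers summed to 5.52 to 5.63 in granulocytes and 7.11 to 7.16 in GMP, with Siglech in the other direction, at 4.47 and 2.01. The 4 eosinophil, basophil and mast cell markers read 8.41 to 8.63 in granulocytes and 7.22 to 7.63 in GMP, with Cpa3 in the other direction, at 2.60 and 3.78. The part of such cells in the members' levels was not tested. Igll1, a surrogate light chain of B cell precursors, had a mean of -1.32 in granulocytes and -3.33 in GMP.

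**Figure D5:**
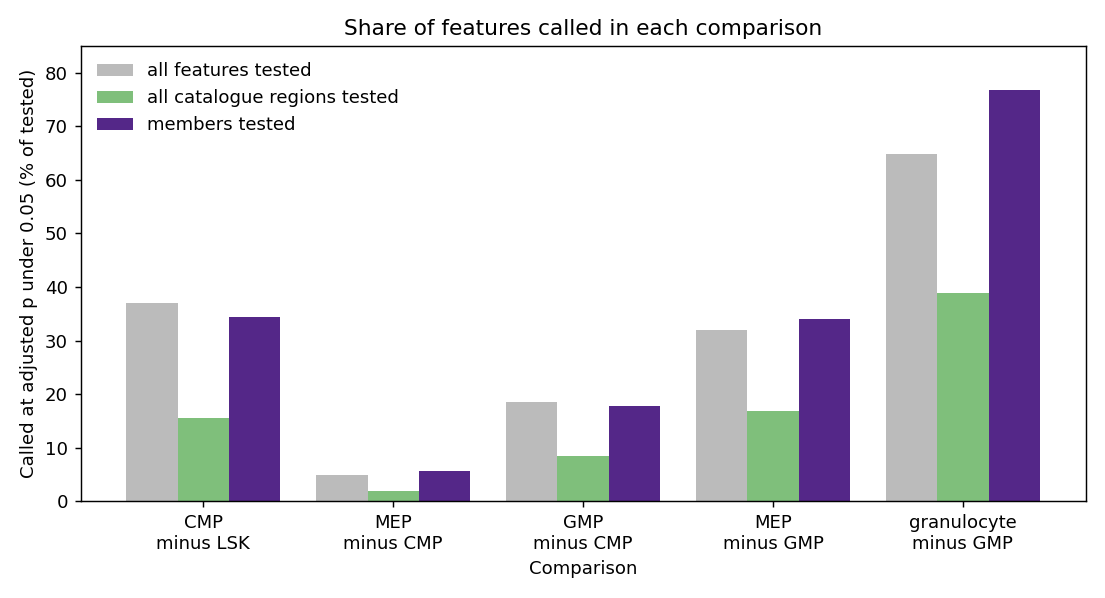
Share of features called at an adjusted p under 0.05 (vertical axis, percent of those tested) in the 5 comparisons (horizontal axis), for all features (grey), all catalogue regions (green) and the 683 members (purple). The members' share is close to that of all features from LSK to CMP (34.5% and 37.0%) and above it between granulocytes and GMP (76.8% and 64.8%).

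Members that lay together tended to follow each other. As a description, pairs of overlapping members on the same strand (129 pairs, some of which may share target sequence) had a median r of 0.86 over the 7 means and the same highest population in 76.7%. For 99 same-strand pairs that lay apart but within 100 kb the median r was 0.858 and the share 56.6%. Overlapping pairs on opposite strands (66) had 0.717 and 62.1%, and opposite-strand pairs within 100 kb (42) 0.429 and 35.7%. Pairs over 1 Mb apart on the same chromosome had a median r of 0.125 and shared their highest population in 24%. Of 129 loci with more than 1 member, 88 had a single highest population.

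The other strand of a member was usually present. For 271 members the catalogue held a feature on the opposite strand, which the rule did not use for that member. That feature was well above background in the member's highest population in 203 (74.9%), against 69.0% over all catalogue regions with an opposite strand. It had its highest mean in the same population and was well above background there in 48 (17.7%), against 37.9% over all such regions, which include those that peak in erythroblasts. By the rule these 48 features are members themselves, so each of their intervals is counted once from each strand. They are not independent cases of agreement. The share with the same highest population was 28.8% for granulocyte and 8.51% for LSK members. With spike-in scaling, which admits 2938 regions, it was 55.6%, and with normexp, which admits 263, it was 7.02%.

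Examples of both strands differed. At chr10:83980790-83986015 both strands rose to granulocytes. At chr4:56013597-56020622 the forward probe had means of 6.95 in granulocytes and 4.80 in GMP, while the reverse probe was highest in CMP (-0.28) and lowest in granulocytes (-2.44). At chr19:56820850-56837925 (2 probes on each strand) both strands were highest in GMP and lower in granulocytes, from 5.96 to 2.91 on the reverse and from 0.42 to -2.76 on the forward strand.

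Probes of the same member did not always give the same answer. In 438 members with 3 or more probes, all probes were well above background in the highest population in 287. All detected probes put the maximum in the same population as the member's mean in 195, a majority of the probes did so in 295, 1 probe alone in 80 and none in 12. The median range between a member's probes was 2.02 log2 units.

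Across all 38391 features, 374 of the 683 members had a named gene as the feature whose pattern over the 19 arrays was most like theirs by Pearson r, and 99 another catalogue region. The median of that highest r was 0.957 for members and 0.980 for 9416 named genes highest outside erythroblasts, which here were not filtered on detection. It was at least 0.99 in 69 members (10.1%) and in 28.8% of those genes. These examples were chosen after their values were seen. The reverse member chr11:3539787-3548811, highest in CMP, was most like the feature named TUG1, a long noncoding RNA (r = 0.960). For chr17:48068261-48087905 (forward, 1 probe), at 8.07 in GMP and 5.09 in granulocytes, the most alike feature was Mif, a secreted cytokine, at r = 0.9998 (second best 0.9986). For chr12:16833551-16901804 (forward, 1 probe) it was E2f6, a repressor of the E2F family (r = 0.997, second best 0.986), and for chr7:128341797-128414692 (reverse, 5 probes) the adaptor Skap2 (r = 0.999, second best 0.995). On different chromosomes, chr14:55433382-55452757 (reverse) and chr5:96591892-96606467 (forward) were each other's most alike feature (r = 0.999), at 6.08 and 6.20 in granulocytes and 0.70 and 0.83 in early erythroblasts. Whether probes of these members bind the RNA of those genes, or of each other's regions, was not tested.

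Among leading members, chr6:40699474-40719122 was most like Hp, which encodes haptoglobin (r = 0.987), and the reverse member of chr10:83980790-83986015 most like Slc11a1, a phagosomal metal transporter (r = 0.989). The forward member of that interval was most like C5ar1, the receptor for complement C5a (r = 0.932). The LSK member chr9:96632664-96653249 was most like Cyp7b1, an oxysterol hydroxylase (r = 0.978), and chr13:28700385-28760363 most like Tcf15, a basic helix-loop-helix factor (r = 0.980). Each r is over the 19 arrays, which share scaling and depth of signal, and is given without a test.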

How the data were processed

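Total RNA was measured on 19 one-colour Agilent arrays. The intensity values are those deposited by the authors: per the file headers, Agilent Feature Extraction 11.5.1.1 subtracted background and flagged spots, with probe annotation on mm9, and replicates are separate files. The labels name Cy5, while the files hold 1 channel. The deposited whole-series table holds the same background-subtracted intensity and served as an alternative. For this work, each array's 75th percentile was subtracted from log2 processed intensity after control spots (1319 of 62543) and outlier flags were left out, and spots and probes of a feature were averaged. The suffix of a region name (F or R) was read as forward or reverse strand. limma 3.58.1 (R 4.3.3) fitted 7 cell type means, and this step was tested on simulated data. No array had a saturated probe, and the number of arrays limits the precision.

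"At least N-fold" sets the brighter group's mean against, per dim array, the higher of the dimmest signal well above background and the region's own signal. Members and lists were chosen with earlier results of these data known. Members were listed for naming by rule, and the text describes a selection of them: for each highest population, the 4 largest gaps and 3 highest levels; for each comparison, the 4 largest rises and falls among called members with no overlap between arrays; up to 6 intervals with members on both strands; and the 2 nearest the boundary on each side. Other members named were chosen after their values were seen: neighbours and overlapping members at these loci, members of other loci with several overlapping members (on chromosomes 14, 16 and 19), and examples with their most alike features. Marker lists covered the sorted populations and 6 other sources: macrophages, lymphocytes (B, and T with NK), dendritic cells with monocytes, mast cells with basophils and eosinophils, and stroma with endothelium. Alternatives were normexp (offset 50, on median signals, since a mean signal column is not in these files), quantile normalization, the percentile over probes detected on every array, spike-in scaling, the brightest probe, the authors' table, no filter, slide or replicate number as a block, only the 2 groups, and each replicate left out. Neighbouring genes and probe sequences were not analysed here.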

Additional observations from a re-analysis of the deposited data

How the results depend on the processing

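The number of regions that met the rule was 263 with normexp, 1163 with quantile normalization and 2938 with spike-in scaling, and 664 to 715 when 1 array was left out in turn. Spike-in scaling lowered the counts called over all features to 3319 in CMP against LSK, 96 in MEP against CMP, 2242 in MEP against GMP and 4916 in granulocytes against GMP, and the members called to 65, 2, 88 and 205 in the same order. MEP against CMP changed most: over all features 1931 were called with normexp, 717 with no filter on dim features, and 0 by limma on only the 2 groups (4170 at an unadjusted p under 0.05), and leaving out 1 replicate gave 361 to 1347. Members called there were 19 with quantile normalization, 16 with the brightest probe, 19 with the authors' table, 22 with no filter, 0 with only the 2 groups, and 8 to 46 without 1 replicate. The share of all calls that were rises moved from 60.6% to 30.1% with detected probes and 81.3% with spike-in scaling in CMP against LSK, from 45.2% to 65.2% and 5.21% in MEP against CMP, from 53.2% to 36.2% and 4.70% in GMP against CMP, from 43.7% to 66.2% and 79.8% in MEP against GMP, and from 39.8% to 51.3% and 64.8% in granulocytes against GMP. With the replicate block the members called were 224, 32, 104, 190 and 463 in the 5 comparisons, each within 1.5 times the value without it. Same-numbered arrays did not deviate together in every pair (r of -0.45 to 0.39), so the numbers were not taken to pair the samples. The 40 differences of named members kept their direction in all 616 alternative values, and 49 of these lost their call. The causes of these changes were not tested. Signal near background limits the levels in erythroblasts, where 179 members were not well above background on any array.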
